A study of Mus musculus with 8 samples.

Results

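The genes described here are the 43 mouse collagen genes, taken by symbol (Col, a number, a and a number, without Col17a1) from the 46983 gene identifiers of a count table of tail epidermis. A filter on low counts kept 30 of the 43 for testing. Collagens are extracellular matrix proteins whose chains wind around each other into a helix and assemble into fibrils, sheets or anchoring structures. Fibrillar collagens such as types I, III and V form the fibres of the dermis and are made mainly by fibroblasts. Type IV collagen forms the network of basement membranes, and collagen VII forms the anchoring fibrils that hold the epidermal basement membrane to the dermis, both with a contribution from keratinocytes.

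The series compared mice labelled SKO with mice labelled CTR, 4 of each, by sequencing the polyadenylated RNA of 1 library per mouse. Ppp1r8 encodes NIPP1, a nuclear regulatory subunit of protein phosphatase 1. CTR mice had the genotype K14-Cre/+ Ppp1r8 fl/+, and SKO mice had the genotype K14-Cre/+ Ppp1r8 fl/-. Every mouse was 8 weeks old, came from a strain that combines the Cre transgene Tg(KRT14-cre)1Amc/J with the Ppp1r8 alleles named Ppp1r8tm1Ave and Ppp1r8tm1.1Itl, and carried Cre together with a floxed allele, so both groups differ from mice without Cre. Cre is driven by the KRT14 promoter, active in basal keratinocytes and the outer root sheath of hair follicles; other cells of the skin are not its direct target, and their Ppp1r8 genotype also differs between the groups, fl/+ against fl/-. To lift the epidermis off the dermis, the tail skin was soaked in cold dispase, a protease (10 mg/ml, 5 h, 4 °C). The labels give no sex, litter or batch and do not say whether hair follicles were removed. Libraries within each group are numbered 1 to 4 here only as names.

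The libraries held 16696212 to 21571935 counted reads each, so that 3 counts corresponded to 0.141 to 0.186 counts per 1000000 counted reads (CPM). CPM values below use library sizes normalised by the trimmed mean of M-values (TMM), and every difference is SKO against CTR. Basal keratinocyte keratins were present at a high level in every library: Krt5 averaged 8793 ± 678 CPM in CTR and 8342 ± 209 CPM in SKO (each ± here and below is the SD over n = 4 libraries per group). Ppp1r8 itself averaged 37.9 ± 3.58 CPM in CTR and 36.4 ± 8.00 CPM in SKO and did not pass the test (edgeR quasi-likelihood test, Benjamini-Hochberg adjusted p = 0.789). Counts over the whole gene do not single out the deleted part, so the labels were not checked by this gene. Xist was between 330 and 994 CPM in all 8 libraries, and 4 Y-linked genes had 0 counts in all of them. The hair follicle markers differed between the groups in these libraries. Of 19 hair shaft and inner root sheath genes, 17 were lower in SKO at an adjusted p of 0.05, beside 12.2% of all tested genes. With edgeR's robust fit 7 were called, where 23.6% of all genes were called. Without CTR 2, CTR 3 or SKO 4, 11 were called each time, where 16.6%, 16.9% and 16.3% of all genes were called. The 19 genes summed to 7766, 14407, 14393 and 10471 CPM in CTR 1 to 4 against 489, 3317, 4560.3 and 1143 CPM in SKO 1 to 4. In whole epidermis, fewer cells of a type and less RNA per cell cannot be told apart.

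Of the 30 collagen genes tested, 10 (33.3%) passed an adjusted p of 0.05, 4 higher and 6 lower in SKO, beside 23.7% of all 15638 genes tested (11.5% higher and 12.2% lower). DESeq2's Wald test gave 11 collagen genes beside 27.5% of all genes, and limma-voom 10 beside 24%. The higher genes were Col8a1, Col23a1, Col5a3 and Col11a2, and the lower genes were Col14a1, Col28a1, Col4a6, Col4a5, Col5a1 and Col6a1. The groups did not overlap for these 10 and for Col5a2, 11 of 30, beside 26.2% of all genes tested. The median log2 difference of the 30 was -0.27, beside -0.0026 over all tested genes. Only 4 of the calls, Col4a6, Col14a1, Col8a1 and Col23a1, were kept under every one of the 17 alternative analyses run. Summed over all 43 genes, collagen reads were 824 to 1061 CPM in CTR and 755 to 947 CPM in SKO, ranges that overlap. The mice are separate animals, but the p-values measure only the spread between these 8 libraries.

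**Figure D1:**
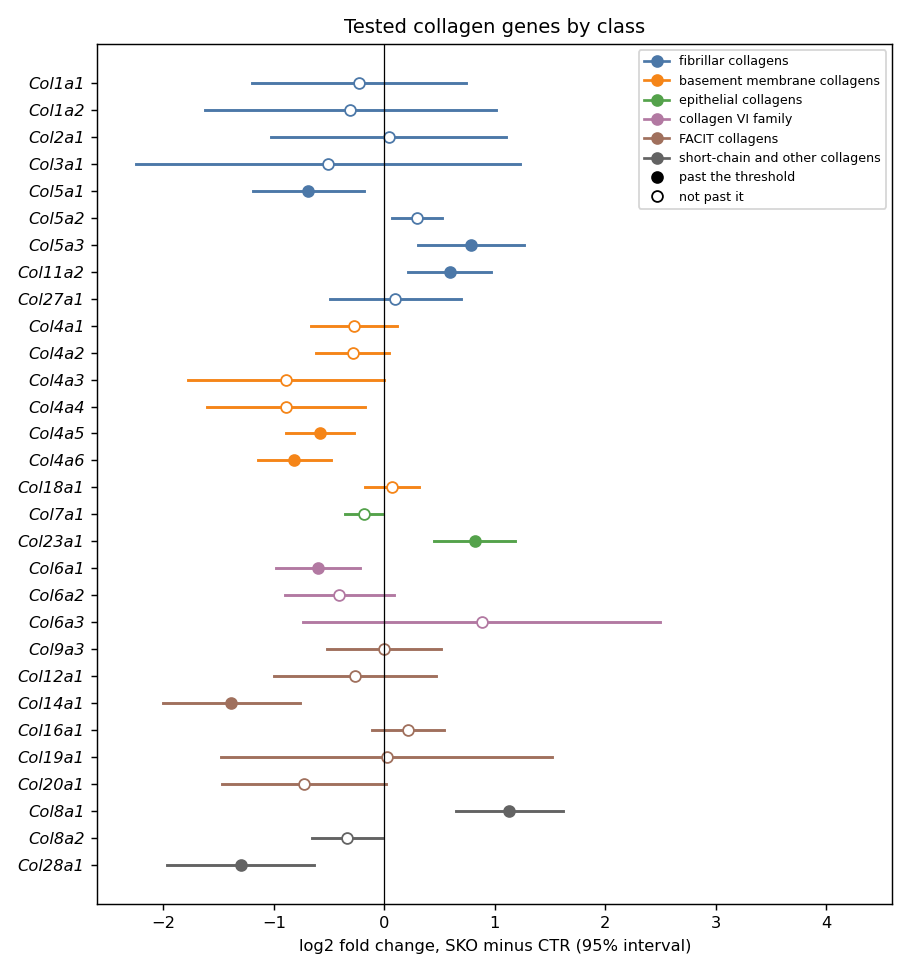
Log2 fold change, SKO minus CTR, of the 30 tested collagen genes (y axis, grouped by class), with the 95% interval as a line. Filled points passed the adjusted p of 0.05 and open points did not; Col14a1 at -1.38 and Col8a1 at 1.13 are the lowest and highest of the filled points.

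Of the type IV collagens, Col4a5 and Col4a6 fell in SKO and the other 4 genes did not pass the test. Type IV chains are encoded by 3 pairs of neighbouring genes lying head to head on opposite strands, and each pair shares the stretch of DNA between its start sites. Col4a1 and Col4a2, on chromosome 8, overlap by 22 bp in the annotation. Col4a3 and Col4a4, on chromosome 1, are 71 bp apart, and Col4a5 and Col4a6, on chromosome X, are 1308 bp apart. The sequences below, RefSeq windows of the GRCm38.p6 build from 250 bases before to 50 bases after a start, are shown because both genes of 1 pair were called. Capitals mark 3 motifs, searched on both strands. The GC box is GGGCGG, the box named for its letters is CCAAT, and the core promoter box found near some start sites is TATAAA. In the lines shown, a match on the opposite strand appears as its reverse complement, and each motif was counted on its own whether or not it overlapped another.
Col4a1, chr8:11312777-11313076, minus strand: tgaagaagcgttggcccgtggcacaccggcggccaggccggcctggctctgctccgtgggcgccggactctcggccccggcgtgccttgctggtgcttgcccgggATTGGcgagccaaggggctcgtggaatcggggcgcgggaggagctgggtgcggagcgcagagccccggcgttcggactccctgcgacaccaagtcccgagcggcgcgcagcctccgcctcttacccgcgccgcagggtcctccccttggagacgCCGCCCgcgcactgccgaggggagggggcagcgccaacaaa
Col4a4, chr1:82586800-82587099, minus strand: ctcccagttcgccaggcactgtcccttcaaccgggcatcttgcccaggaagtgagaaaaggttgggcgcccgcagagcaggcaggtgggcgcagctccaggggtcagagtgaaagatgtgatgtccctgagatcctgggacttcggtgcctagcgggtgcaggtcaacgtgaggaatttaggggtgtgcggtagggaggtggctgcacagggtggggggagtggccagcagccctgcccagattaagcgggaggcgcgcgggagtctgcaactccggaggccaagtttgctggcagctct
Col4a5, chrX:141475169-141475468, plus strand: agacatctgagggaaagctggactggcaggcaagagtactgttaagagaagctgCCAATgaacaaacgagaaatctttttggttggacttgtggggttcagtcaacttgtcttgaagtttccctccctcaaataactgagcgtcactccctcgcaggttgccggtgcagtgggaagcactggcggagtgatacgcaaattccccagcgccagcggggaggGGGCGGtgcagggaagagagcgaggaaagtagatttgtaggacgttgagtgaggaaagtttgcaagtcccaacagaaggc
Col4a6, chrX:141474027-141474326, minus strand: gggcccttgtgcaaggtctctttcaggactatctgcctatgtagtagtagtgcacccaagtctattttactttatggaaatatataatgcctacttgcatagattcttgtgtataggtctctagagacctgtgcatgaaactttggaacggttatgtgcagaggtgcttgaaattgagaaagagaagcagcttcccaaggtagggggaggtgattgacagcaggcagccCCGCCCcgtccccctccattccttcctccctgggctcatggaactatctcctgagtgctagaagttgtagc
The Col4a1 window also holds the annotated start of Col4a2, at 11312805, and the Col4a4 window holds that of Col4a3, at 82586921. The Col4a5 and Col4a6 windows do not touch each other. In these letters, the Col4a1 and Col4a5 windows each hold 1 GC box and 1 CCAAT box, the Col4a6 window holds 1 GC box, and the Col4a4 window holds none of the 3 motifs. Windows were found for 34 of the 43 genes, 37 windows in all. A GC box was in 62.2% of them and in 35.7% of all 32851 windows of the table, CCAAT in 32.4% and 37.4%, and TATAAA in 10.8% and 13.6%. The median GC content was 60% in the collagen windows and 52.7% in all windows. A match describes the letters only.

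Col4a5 and Col4a6, whose chains assemble together in the basement membrane of skin, were both lower in SKO. Col4a6 (ENSMUSG00000031273.16, chromosome X, 141165403 to 141474076, minus strand) was at 45.4, 48.1, 46.8 and 33.9 CPM in CTR 1 to 4 and at 21.2, 29.9, 27.2 and 20.6 CPM in SKO 1 to 4. Every SKO library was below every CTR library, and the fall was 1.76-fold (log2 difference -0.81, SE 0.15, adjusted p = 0.00446) by edgeR's quasi-likelihood test with Benjamini-Hochberg adjustment. Col4a5 (ENSMUSG00000031274.16, chromosome X, 141475385 to 141689234, plus strand) read 65.8, 65.9, 56.4 and 47.4 CPM in CTR and 40.3, 39.3, 46.6 and 31.1 CPM in SKO. CTR 4 was the lowest control and came within 1 CPM of SKO 3, the highest SKO library, without overlap. The fall was 1.50-fold (log2 difference -0.58, SE 0.14, adjusted p = 0.0144) by the same edgeR test. Without CTR 2 and SKO 4 together the Col4a5 call was lost (edgeR adjusted p = 0.0764; range over the alternatives 0.000753 to 0.0764). The call for Col4a6 held in each alternative, with edgeR, DESeq2 or limma adjusted p from 4.49e-06 to 0.0331. Of the 588 tested genes on chromosome X, which carries both, 11.2% were lower and 6.63% higher in SKO; Xist was also lower, by a log2 difference of -0.92 (edgeR adjusted p = 0.00817).

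The other type IV pairs did not pass the test. Col4a3 and Col4a4, whose chains join that of Col4a5 in the filters of kidney and other organs, had the largest estimated differences of these 4 genes. Col4a4 was at 10.1, 13.5, 10.3 and 5.41 CPM in CTR and 3.09, 8.09, 5.86 and 4.13 CPM in SKO (log2 difference -0.89, 95% interval -1.60 to -0.17, adjusted p = 0.0703, edgeR). Col4a3 was at 6.66, 10.1, 5.63 and 3.30 CPM and 1.57, 5.01, 4.81 and 2.44 CPM (log2 difference -0.89, 95% interval -1.78 to -0.0001, adjusted p = 0.133, edgeR). For both genes SKO 1 and SKO 4 were the lowest SKO libraries, and CTR 4 lay inside the SKO range. Col4a4 passed under DESeq2's Wald test, with no count filter, without CTR 4 and without SKO 2 (adjusted p over the alternatives 0.0205 to 0.313). The groups also overlapped for Col4a1 and Col4a2, the chains of the common basement membrane network. Col4a1 read 38.3, 66.0, 44.5 and 44.9 CPM in CTR and 30.4, 46.4, 43.7 and 39.9 CPM in SKO (log2 difference -0.27, 95% interval -0.66 to 0.12, adjusted p = 0.285, edgeR). Col4a2 read 28.1, 43.5, 28.8 and 27.8 CPM and 23.7, 28.4, 28.1 and 24.9 CPM (log2 difference -0.29, 95% interval -0.61 to 0.04, adjusted p = 0.185, edgeR). CTR 2 was the highest library for both, and for Col4a2 the overlap was narrow, with SKO 2 and SKO 3 just above CTR 4, the lowest control.

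Expressed per kilobase of exon, so that genes can be compared, the pairs took different shares of type IV collagen reads. Col4a5 and Col4a6 together made up 52.7% ± 4.88 in CTR and 46.8% ± 3.97 in SKO (SD, n = 4 per group). Col4a1 and Col4a2 made up 41.6% ± 5.11 and 48.9% ± 3.54, and Col4a3 and Col4a4 5.64% ± 1.32 and 4.29% ± 1.39. All 3 shares overlapped between the groups and were not tested. The per-length ratio of Col4a6 to Col4a5 was 0.625 ± 0.0515 in CTR and 0.534 ± 0.0848 in SKO, also overlapping. No test of whether one pair moved more than another was run.

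**Figure D2:**
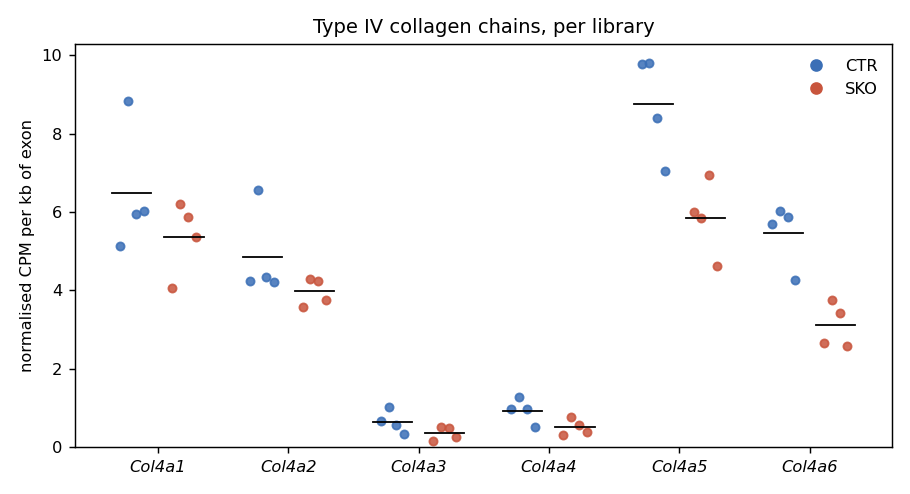
Normalised CPM per kb of exon of the 6 type IV collagen genes in each library, CTR and SKO side by side, with the group mean as a bar. Every SKO library lies below every CTR library for Col4a5 and Col4a6, while the groups overlap for the other 4 genes.

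Collagen XVIII and collagen VII gave the highest per-length levels of all 43 genes. Col18a1, a basement membrane collagen whose C-terminal fragment is endostatin, was at 31.4 ± 2.03 CPM per kb in CTR and 33.0 ± 5.11 in SKO. Col7a1 was at 23.3 ± 1.67 and 20.4 ± 1.04 CPM per kb. Together they held 44.0% to 53.0% of the summed collagen CPM in CTR libraries and 49.6% to 54.2% in SKO libraries. In CPM, Col7a1 read 246, 255, 242 and 215 in CTR and 195, 212, 216 and 218 in SKO (log2 difference -0.19, 95% interval -0.36 to -0.02, adjusted p = 0.101, edgeR), with CTR 4 below SKO 3 and SKO 4. It passed without CTR 4 only (adjusted p over the alternatives 0.0496 to 0.276). Col18a1 read 207, 212, 239 and 222 CPM and 212, 258, 265 and 191 CPM, with the groups interleaved (log2 difference 0.07, 95% interval -0.17 to 0.32, adjusted p = 0.665, edgeR). Of the 7 tested basement membrane collagens 2 passed (28.6%, beside 23.7% of all tested genes), both lower. The median log2 difference was -0.58.

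Among the collagens of epithelial cell membranes, Col23a1 rose. Collagen XXIII is a transmembrane collagen found on keratinocytes. Col23a1 (ENSMUSG00000063564.13, chromosome 11, 51289920 to 51583918, plus strand) was at 5.53, 6.74, 5.57 and 5.51 CPM in CTR and 8.75, 13.8, 9.42 and 9.27 CPM in SKO. The groups did not overlap, and SKO 2 was the highest library. The rise was 1.76-fold (log2 difference 0.82, SE 0.17, adjusted p = 0.00714) by edgeR, and the call held in each alternative. With Col7a1 counted in this class, 1 of 2 tested members passed (50%, beside 23.7% of all tested genes). Col13a1, another transmembrane collagen, was not tested, with 19 counts over the CTR libraries and 3 over the SKO libraries. The related Col17a1, a hemidesmosome component that is no member here, was at 1808 ± 121 CPM in CTR and 1319 ± 206 CPM in SKO and was lower (log2 difference -0.45, edgeR adjusted p = 0.0182); without SKO 4 that call was lost.

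**Figure D3:**
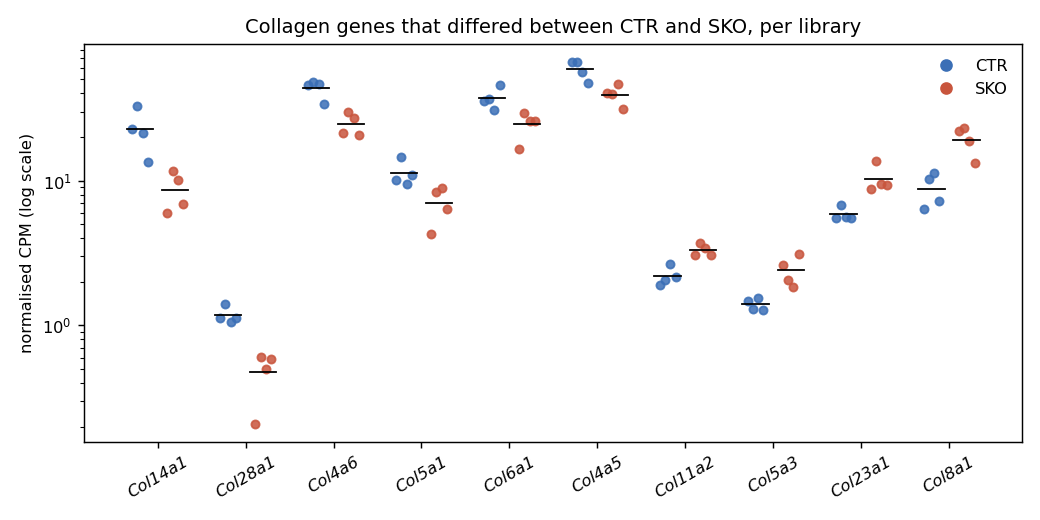
Normalised CPM (y axis, log scale) of the 10 collagen genes past the threshold in each of the 8 libraries, CTR and SKO side by side, with a bar at the group mean. For each gene all SKO libraries lie on one side of all CTR libraries; Col8a1, Col23a1, Col5a3 and Col11a2 are higher in SKO.

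Fibrillar collagens gave 3 calls among 9 tested genes (33.3%, beside 23.7% of all tested genes), and the members did not move one way. The 3 were minor chains: Col5a1, a chain of the collagen V that starts fibrils, fell, while Col5a3 and Col11a2 rose. Col5a1 (ENSMUSG00000026837.15, chromosome 2, 27886425 to 28039514, plus strand) was at 10.0, 14.6, 9.47 and 11.0 CPM in CTR and 4.30, 8.39, 8.91 and 6.35 CPM in SKO, with SKO 3 just under CTR 3. The fall was 1.61-fold (log2 difference -0.69, SE 0.23, adjusted p = 0.0499) by edgeR, at the edge of the threshold, and the call was lost in 12 of the 17 alternatives (adjusted p 0.0152 to 0.237), among them leaving out each library except SKO 3. Its exons overlap a pair of unnamed transcripts by 99 and 113 bp, which had 8 and 0 counts in all libraries.

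Col5a3 (ENSMUSG00000004098.7, chromosome 9, 20770050 to 20815067, minus strand), a further collagen V chain, was at 1.49, 1.30, 1.55 and 1.27 CPM in CTR and 2.62, 2.07, 1.85 and 3.12 CPM in SKO. The rise was 1.73-fold (log2 difference 0.79, SE 0.22, adjusted p = 0.0255) by edgeR. Each of CTR 1, CTR 2, CTR 4, SKO 1 and SKO 4, left out singly, ended the call (adjusted p over the alternatives 0.0152 to 0.143). Col11a2 (ENSMUSG00000024330.16, chromosome 17, 34039437 to 34066685, plus strand), known best from cartilage, was at 1.90, 2.07, 2.66 and 2.17 CPM in CTR and 3.04, 3.69, 3.41 and 3.07 CPM in SKO. The rise was 1.51-fold (log2 difference 0.59, SE 0.17, adjusted p = 0.0307) by edgeR, and was not past the threshold without CTR 1, CTR 2, CTR 4, SKO 2, SKO 3 or SKO 4, or with no count filter (adjusted p 0.0249 to 0.109). Col5a2, the partner chain of Col5a1, read 12.1, 13.5, 11.3 and 11.1 CPM and 14.3, 16.0, 14.7 and 13.8 CPM. Its groups did not overlap, yet it missed the threshold (log2 difference 0.29, 95% interval 0.07 to 0.52, adjusted p = 0.0607, edgeR); it passed with upper-quartile scaling and without CTR 2 (adjusted p over the alternatives 0.0451 to 0.149). The median log2 difference of the 9 fibrillar genes was 0.04, and 0.36 without CTR 2.

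Collagens I and III, the main fibrils of dermis, were at a low level, between 0.681 and 7.17 CPM in every library. Col1a1 read 2.30, 4.52, 1.36 and 1.51 CPM in CTR and 2.99, 1.11, 1.40 and 2.86 CPM in SKO. Col1a2 read 2.10, 5.77, 1.42 and 0.753 CPM and 1.10, 1.72, 1.35 and 4.02 CPM, and Col3a1 1.69, 7.17, 0.681 and 0.989 CPM and 0.891, 0.860, 1.00 and 4.77 CPM. CTR 2 and SKO 4 were the highest of their group for Col1a2 and Col3a1, and CTR 2 for Col1a1, while SKO 1 was slightly above SKO 4 for Col1a1. None of the 3 passed the edgeR test (adjusted p = 0.735, 0.739 and 0.665). Together they held 0.361% to 1.65% of the summed collagen CPM in CTR and 0.390% to 1.54% in SKO.

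The same libraries stood apart for some genes of smooth muscle and pericytes, the contractile cells of vessels and of the muscle that raises hairs. Acta2, smooth muscle actin, read 3.23, 17.4, 4.89 and 4.10 CPM in CTR and 4.82, 4.45, 2.20 and 31.9 CPM in SKO. Myh11, smooth muscle myosin, was at 0.256, 4.14, 0 and 0.0471 CPM and 0.0524, 0.101, 0.250 and 16.0 CPM, and Rgs5, a pericyte gene, at 0, 2.41, 0.124 and 0 CPM and 0, 0.0506, 0.0501 and 25.8 CPM. SKO 4 was the highest library for these 3 genes and CTR 2 the second. The 10 listed pericyte and muscle markers summed to 73.3 to 117 CPM in CTR and 87.9 to 184 CPM in SKO. Cspg4 averaged 66.5 CPM of this sum in CTR and 87.5 CPM in SKO. It was highest in SKO 1, at 102 CPM, with SKO 4 at 82.9 CPM. Tagln was highest in CTR 2, at 18.5 CPM, with SKO 4 next at 17.9 CPM. Of the 10 markers, 3 could be tested and 1, Cspg4, was higher (33.3%, beside 23.7% of all tested genes called). Without SKO 4 there were 2 calls, Cspg4 higher and Tagln lower, where 16.3% of all genes were called. The fibroblast gene Pdgfra was at 0.461, 1.44, 0.247 and 0.282 CPM in CTR and 0.419, 0.354, 0.351 and 0.424 CPM in SKO, highest in CTR 2, and Twist2 and Mfap4 had at most 3 counts in every library. Fibroblast markers summed to 307 to 426 CPM in CTR and 443 to 568 CPM in SKO, most of it Postn, which the outer root sheath also expresses. Of 19, 7 could be tested and 4 passed (57.1%, beside 23.7% of all tested genes), Vim and Postn higher and Fap and Fstl1 lower. The other 3 did not pass. Fap reached the 0.518 CPM of the count filter in every CTR library but only in SKO 2 and SKO 3. It therefore entered the test through the CTR group, and its call was lost without CTR 3, CTR 4 or SKO 4. Endothelial markers summed to 5.53 to 11.1 CPM and 6.17 to 8.13 CPM, with Kdr at 3 counts or fewer in every library. Of 4 tested, 1, Flt1, was higher (25%, beside 23.7% of all tested genes called). Pecam1, Tek and Vwf had negative estimates that did not pass (log2 differences -0.34, -0.84 and -0.94). What part such cells had in the collagen differences was not tested. With CTR 2 and SKO 4 both left out, an alternative chosen after seeing these values, 4 collagen genes passed, Col8a1 and Col23a1 higher and Col4a6 and Col14a1 lower, beside 10.9% of all genes.

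**Figure D4:**
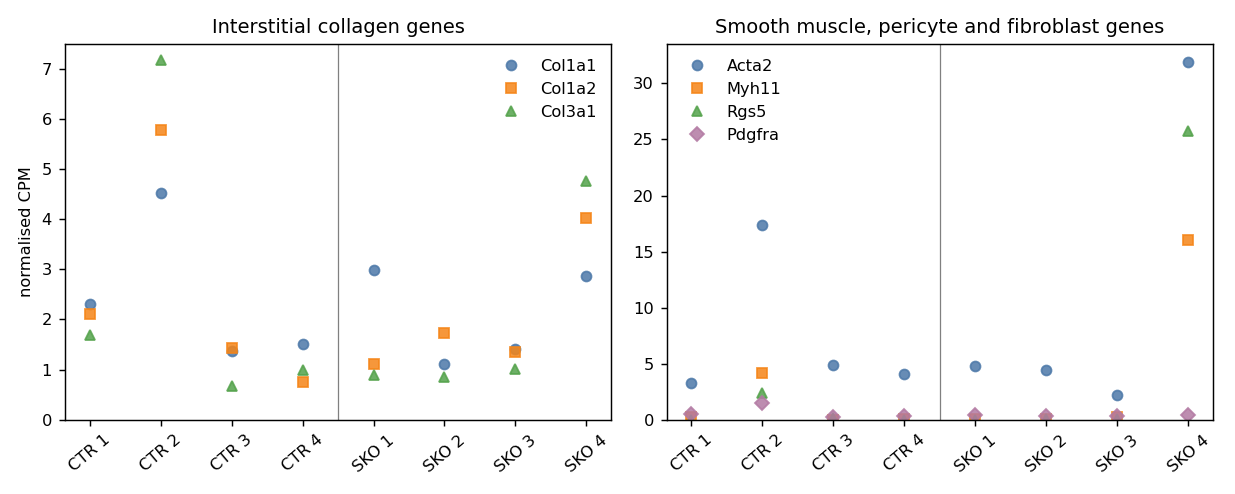
Normalised CPM of Col1a1, Col1a2 and Col3a1 (left) and of Acta2, Myh11, Rgs5 and Pdgfra (right) in each of the 8 libraries, 1 point per gene and library. CTR 2 has the highest Col3a1 at 7.17 CPM, SKO 4 the next at 4.77 CPM, and SKO 4 the highest Myh11 at 16.0 CPM.

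Col14a1 had the lowest estimated log2 difference of the 10 genes, close to that of Col28a1. Collagen XIV belongs to the collagens that attach to fibrils without forming them, known as FACIT collagens. Col14a1 (ENSMUSG00000022371.15, chromosome 15, 55307750 to 55520803, plus strand) was at 22.8, 33.0, 21.4 and 13.5 CPM in CTR and 5.98, 11.6, 10.2 and 6.94 CPM in SKO. All SKO libraries were below all CTR libraries, with SKO 1 and SKO 4 lowest and CTR 4 the lowest control. The fall was 2.61-fold (log2 difference -1.38, SE 0.28, adjusted p = 0.00698) by edgeR, and no alternative ended the call (adjusted p 4.85e-06 to 0.0423). SKO 1 and SKO 4 were also the libraries with the lowest summed hair shaft and root sheath markers; among the controls the order differed, since CTR 1 had the lowest hair sum. Markers of the dermal papilla, the mesenchymal cells at the hair base, summed to 102 to 125 CPM in CTR and 33.7 to 61.4 CPM in SKO. Of 12 such markers 5 could be tested, and 4 were lower, beside 12.2% of all tested genes. The 4 were Hhip, Lef1, Prom1 and Ptch1, which hair matrix keratinocytes can also express. Wif1 did not pass (log2 difference 0.36). Prom1 reached the 0.518 CPM of the count filter in every CTR library but only in SKO 1 and SKO 3. It therefore entered the test through the CTR group. The Ptch1 call was lost without CTR 2, CTR 3 or SKO 4. Corin, Sox18, Rspo2, Rspo3 and Alx4 had at most 3 counts in every library. What part these hair follicle values had in the Col14a1 difference was not tested.

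**Figure D5:**
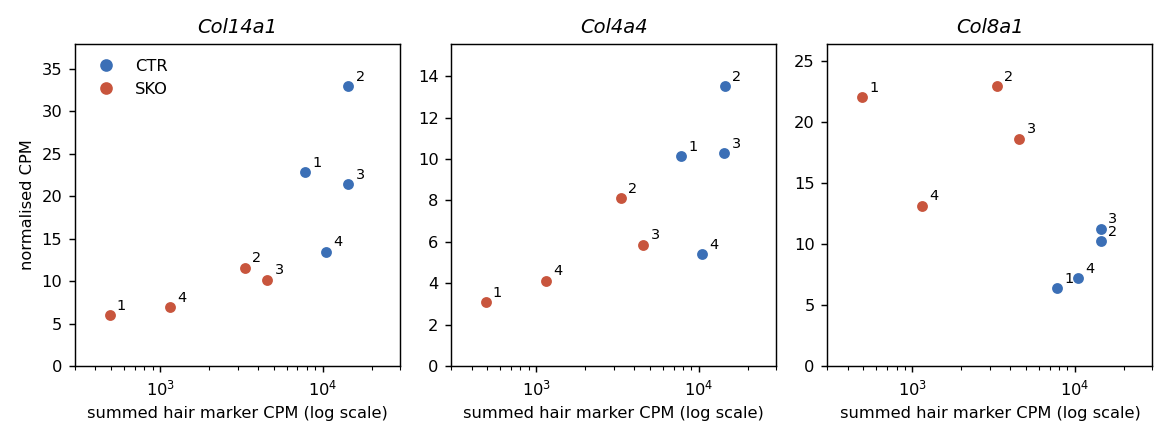
Normalised CPM of Col14a1, Col4a4 and Col8a1 (y axis, 1 panel per gene) against the summed CPM of 19 hair shaft and root sheath markers (x axis, log scale), 1 point per library with its number. SKO 1 and SKO 4, with hair sums of 489 and 1143 CPM, lie at the left.

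FACIT collagens gave 1 call, Col14a1, among 6 tested genes (16.7%, beside 23.7% of all tested genes). The remaining 5 tested FACIT genes did not pass. Col12a1, which binds collagen I fibrils, was at 78.7, 87.0, 63.9 and 34.5 CPM in CTR and 59.5, 69.5, 66.0 and 24.8 CPM in SKO, with CTR 4 and SKO 4 the lowest of their groups (log2 difference -0.26, edgeR adjusted p = 0.592). Col16a1, made by keratinocytes and fibroblasts, was at 76.2, 87.2, 91.8 and 58.7 CPM and 90.7, 107, 91.6 and 73.8 CPM (log2 difference 0.21, 95% interval -0.12 to 0.54, adjusted p = 0.321, edgeR). Both overlapped between the groups. Col16a1 lies 2.73 Mb from Ppp1r8 on chromosome 4, the nearest of the 5 collagen genes on that chromosome. Col20a1 had 4.46, 2.79, 4.52 and 2.64 CPM in CTR and 1.78, 2.93, 1.00 and 2.97 CPM in SKO, with edgeR adjusted p = 0.142.

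Collagen VI, a beaded microfibril next to basement membranes, gave 1 call among 3 tested genes (33.3%, beside 23.7% of all tested genes). The median log2 difference was -0.41. Col6a1 (ENSMUSG00000001119.7, chromosome 10, 76708792 to 76726168, minus strand) was at 35.3, 36.7, 30.9 and 45.5 CPM in CTR and 16.6, 29.3, 25.8 and 26.0 CPM in SKO. SKO 1 was far below the other SKO libraries, and SKO 2, the highest, was just under CTR 3. The fall was 1.52-fold (log2 difference -0.60, SE 0.17, adjusted p = 0.0292) by edgeR, and leaving out any of CTR 1, CTR 2, CTR 4 or SKO 4 ended the call (adjusted p over the alternatives 0.00452 to 0.0929). Its neighbour and partner Col6a2 read 9.58, 12.4, 8.17 and 12.0 CPM and 4.72, 9.41, 7.96 and 9.69 CPM, with overlap (log2 difference -0.41, 95% interval -0.90 to 0.08, adjusted p = 0.206, edgeR). Col6a3, the third chain of the usual trimer, was below 2 CPM in every library. The 6 collagen VI genes summed to 39.5 to 57.8 CPM in CTR and 22.0 to 39.0 CPM in SKO, a difference that was not tested.

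Among short-chain and other collagens, Col8a1 rose and Col28a1 fell, 2 of 3 tested genes (66.7%, beside 23.7% of all tested genes called). Collagen VIII is a short-chain collagen of vessel walls and of the membrane under corneal endothelium. Col8a1 (ENSMUSG00000068196.4, chromosome 16, 57624258 to 57754737, minus strand) was at 6.40, 10.2, 11.3 and 7.20 CPM in CTR and 22.0, 23.0, 18.6 and 13.1 CPM in SKO. SKO 4 was the lowest SKO library and lay above CTR 3, the highest control. The rise was 2.19-fold (log2 difference 1.13, SE 0.22, adjusted p = 0.00581) by edgeR, and the call held in each alternative. By comparison, 2.42% of all tested genes were called and at least 2-fold higher. Its partner chain Col8a2 did not pass, at 11.1, 10.2, 10.3 and 9.37 CPM in CTR and 7.23, 9.86, 6.51 and 8.68 CPM in SKO (log2 difference -0.34, 95% interval -0.66 to -0.02, adjusted p = 0.110, edgeR). Col28a1 (ENSMUSG00000068794.6, chromosome 6, 7997808 to 8192617, minus strand), known from Schwann cell basement membranes, was at 1.13, 1.40, 1.05 and 1.13 CPM and 0.210, 0.607, 0.501 and 0.582 CPM. The fall was 2.46-fold (log2 difference -1.30, SE 0.30, adjusted p = 0.0127) by edgeR, at a low level: all 4 CTR libraries but only 2 SKO libraries reached the 0.518 CPM of the count filter, so it entered the test through the CTR group. Without CTR 2 and SKO 4 together it did not pass (adjusted p over the alternatives 0.0119 to 0.0578). Summed over the class, short-chain and other collagens read 17.9 to 22.8 CPM in CTR and 22.6 to 33.6 CPM in SKO. Schwann cell markers summed to 64.5 to 71.9 CPM in CTR and 52.4 to 60.8 CPM in SKO. Of 5 tested, 2 were lower, Ngfr and Mbp (40%, beside 12.2% of all tested genes). The part of these markers in the Col28a1 value was not tested.

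The 13 collagen genes that were not tested had 0 to 31 counts in all 8 libraries together, and at most 11 in any library. They include the cartilage collagens Col9a1, Col9a2, Col10a1 and Col11a1. Col10a1 and Col6a6 had 0 counts in every library, which allows up to 0.141 to 0.186 CPM per library; these limits cover counting error only. The tested genes Col2a1, Col9a3, Col19a1 and Col27a1 did not pass, with edgeR adjusted p of 0.961, 0.996, 0.986 and 0.814.

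Of 32 listed genes of collagen synthesis and assembly, 27 were tested, 1 was higher and 6 were lower, with a median log2 difference of -0.09. Their share called, 25.9%, was near the 23.7% of all tested genes. Plod1, a lysyl hydroxylase, rose from 11.5 ± 1.17 to 28.1 ± 6.83 CPM (log2 difference 1.29, edgeR adjusted p = 0.00134). Adamts14, which removes the N-propeptide of procollagen, fell from 14.6 ± 2.21 to 4.21 ± 0.592 CPM (log2 difference -1.79, edgeR adjusted p = 0.000167). Tll1, a C-propeptide protease, averaged 6.15 ± 3.25 and 2.08 ± 0.860 CPM with overlapping groups (log2 difference -1.55, edgeR adjusted p = 0.0289), and its call was lost under limma-voom and without any of CTR 1, CTR 2, CTR 3, SKO 1 or SKO 4. The prolyl 3-hydroxylase gene P3h1 was also lower (log2 difference -0.75, edgeR adjusted p = 0.0392), a call lost without any of CTR 1, CTR 2, CTR 3, SKO 3 or SKO 4. P4hb, a subunit of prolyl 4-hydroxylase with the most reads of the list, averaged 579 ± 44.9 and 593 ± 23.5 CPM (edgeR adjusted p = 0.777). Without CTR 3 the list gave 4 calls, where 16.9% of all genes were called.

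Collagen receptors and uptake genes gave 3 calls among 11 tested of 12 listed (27.3%), near the 23.7% of all tested genes. Itga11, the chain of a fibrillar collagen integrin, read 1.18, 1.97, 1.48 and 0.989 CPM in CTR and 0, 0.202, 0.601 and 0.0529 CPM in SKO. All 4 CTR libraries but only SKO 3 reached the 0.518 CPM of the count filter, so it entered the test through the CTR group. It fell from 1.41 ± 0.430 to 0.214 ± 0.272 CPM (log2 difference -2.65, edgeR adjusted p = 0.0129). Mrc2, an endocytic collagen receptor, fell from 32.9 ± 2.92 to 18.8 ± 2.56 CPM (log2 difference -0.81, edgeR adjusted p = 0.00126). Cd44 rose from 385 ± 56.4 to 533 ± 21.4 CPM (log2 difference 0.47, edgeR adjusted p = 0.0114). Without CTR 2 and SKO 4 together, Mrc2 alone of these 3 passed. Sdc1, with the most reads of the list, was at 1121 ± 84.2 and 1196 ± 58.2 CPM (edgeR adjusted p = 0.432).

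Other basement membrane genes were called mostly in the direction of Col4a5 and Col4a6. Of 27 listed, 23 were tested, with 1 higher and 8 lower and a median log2 difference of -0.13, beside 11.5% higher and 12.2% lower of all tested genes. Among the 8 lower was Col17a1, left out of the collagen genes here, which has the most reads of this list. It is counted again among the basal keratinocyte markers below, and Npnt again among the bulge markers. Without SKO 4 the list gave 4 calls in all, where 16.3% of all genes were called. Fras1 and Frem2 encode proteins of one complex at the epidermal basement membrane. Fras1 fell from 104 ± 25.8 to 34.8 ± 21.6 CPM (log2 difference -1.57, edgeR adjusted p = 0.0177). Frem2 fell from 34.0 ± 12.9 to 15.3 ± 5.31 CPM (log2 difference -1.15, edgeR adjusted p = 0.0246). Both calls were lost with the robust edgeR fit, and that of Frem2 also without CTR 2, CTR 3 or SKO 4. Npnt, which encodes the integrin ligand nephronectin, was lower (log2 difference -0.81, edgeR adjusted p = 0.00381), and Fbln1, a fibulin, was higher, at 19.9 ± 2.20 CPM in CTR and 40.2 ± 5.72 CPM in SKO (log2 difference 1.01, edgeR adjusted p = 0.000725). Basal keratinocyte markers summed to 18989 to 20872 CPM in CTR and 17369 to 18268 CPM in SKO, with 4 of 9 lower (2 without SKO 4), and suprabasal markers to 24024 to 26501 CPM and 47511 to 64937 CPM, with 4 of 8 higher and 1 lower. Bulge and outer root sheath markers summed to 3794 to 3967 CPM and 2927 to 3400.2 CPM, with 1 of 15 higher and 4 lower (3 calls in all without CTR 1). Melanocyte markers summed to 248 to 362 CPM and 333 to 556 CPM, with 4 of 8 higher and 1 lower (3 calls without CTR 2, CTR 3 or CTR 4). What part these cell types had in the collagen values was not tested.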

How the data were processed

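Values start from the deposited table of raw gene counts, 1 column per library, which the authors made from 75 bp single reads of stranded poly-A libraries. Per the submitters' processing notes, the build was GRCm38 and the tools included featureCounts 1.4.6, STAR 2.4.1d, edgeR 3.8.6 and Bowtie2 2.2.4; the annotation and the strand setting of the counting are not given in the sources used here. Symbols came from GENCODE M21 (46488 of 46983 identifiers matched), and coordinates are GRCm38. Groups came from the genotype labels.

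Genes were kept by edgeR's default count filter (15638 tested), normalised by TMM and tested with edgeR 4.0.16 quasi-likelihood fits in R 4.3.3, SKO against CTR, with Benjamini-Hochberg adjustment over all tested genes and a threshold of 0.05. The script was tested on simulated data. Fold changes come from the fit; CPM per kb divides by merged exon length. Values per library are given for collagen genes past the threshold or averaging at least 5 CPM in a group. From the 3 pathway lists the text names the most changed called genes, at most 4 and averaging at least 1 CPM in a group, and the gene with the most reads; marker lists are given by counts and sums. Col1a1, Col1a2, Col3a1, Col20a1, Acta2, Myh11, Rgs5, Pdgfra, Tagln, Cspg4, Pecam1, Tek, Vwf and Wif1 fall outside this rule. They were chosen after their values were seen. The members, classes and 13 other lists were chosen with earlier results of these data known, so list counts are descriptions. A planned exact permutation test of summed class levels is not reported, since it would give a p for a score over chosen members. Alternatives were DESeq2 1.42.0, limma 3.58.1 voom, a robust edgeR fit, 3 other scalings, 2 other filters and each library left out; leaving out CTR 2 and SKO 4 together was added after seeing the data. The precision of a value is limited by depth, 3 counts being 0.141 to 0.186 CPM. No pair of libraries within a group differed by as little as sampling noise (lowest chi-square per degree of freedom 14.2).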

Additional observations from a re-analysis of the deposited data

Results flagged for a closer look

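Among 72 groups of 4 libraries examined (each tested collagen gene and each class sum in CTR and in SKO), 7 held a library far from the other 3; chance gives about 1 in 20. Col3a1, a dermal fibril chain, was at 7.17 CPM in CTR 2, with the other controls at 0.681 to 1.69 CPM. It was at 4.77 CPM in SKO 4, with the other SKO libraries at 0.860 to 1.00 CPM. Both libraries also had the highest Acta2, Myh11 and Rgs5 of their group. Col4a2 was at 43.5 CPM in CTR 2 and at 27.8 to 28.8 CPM in the other controls. Col23a1 was at 6.74 CPM in CTR 2, where the other controls lay between 5.51 and 5.57 CPM. In SKO 2 Col23a1 reached 13.8 CPM, against 8.75 to 9.42 CPM in the other SKO libraries, so the library with most Col23a1 widened the difference between the groups. Col19a1 was low in CTR 3 at 0.124 CPM, under 3 counts, beside 0.529 to 0.612 CPM in the other controls. The summed epithelial collagens were low in SKO 1 at 203.5 CPM, beside 225.7 to 227.5 CPM in the other SKO libraries, and most of that sum is Col7a1.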

How the results depend on the processing

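No paired analysis was possible because the labels give no replicate numbers shared by the groups. Of the 10 called collagen genes, 4 kept their call in all 17 alternatives and 0 changed sign; of the 20 not past the threshold, 3 passed in at least 1 alternative. Leaving out 1 library at a time gave 6 to 9 called collagen genes (6 without CTR 1 or SKO 4), 2 to 4 higher and 4 to 6 lower. Over all genes the share called moved with these fits, from 16.3% without SKO 4 to 27.6% without SKO 3, and was 17.5% without CTR 1, beside 23.7% with all libraries. By class these fits gave 0 to 2 fibrillar calls, 2 to 3 basement membrane, 1 to 2 epithelial and 0 to 1 collagen VI. They gave 4 to 7 calls for synthesis and assembly, 4 to 11 for other basement membrane genes, and fibrillar medians of -0.22 to 0.36. With CTR 2 and SKO 4 both left out, 4 collagen genes passed, 2 higher and 2 lower: 0 fibrillar, 1 basement membrane, 0 collagen VI and 1 short-chain. That fit, with 3 libraries a group, gave 1 call for receptors and 4 for other basement membrane genes, and 1708 calls (10.9%) over all genes. Without a count filter, which adds low genes such as Col13a1, the median log2 difference was -0.51 for epithelial and -0.52 for short-chain collagens. The count filter, at 0.518 CPM in at least 4 libraries, limits what depth allowed to be tested.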
